A study of Mus musculus with 8 samples.

Results

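The collagen chain genes of mouse embryonic fibroblasts were compared between wild type and a knockout of Cbx2. They were taken as every gene of the authors' deposited table whose symbol consists of Col, a number, a and a number. This gave 43 of 17441 genes, all of which passed into the authors' test. Primary fibroblasts from embryos at embryonic day 18 were grown for 2 passages. Wild-type cells came from littermates, and knockout cells (Cbx2-/-) carried a targeted deletion of the Cbx2 gene. No source used here names the strain or sex. The labels leave unsaid whether both RNA libraries per genotype derive from different embryos, so the p-values measure only the spread between these libraries, which may be technical. Each RNA library had about 4.62 Gb of sequence. ATAC-seq libraries, 2 per genotype, were not analysed here.

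Collagens are trimers of chains that wind around each other in a triple helix, in which glycine recurs at a fixed spacing. Fibrillar collagens form the load-bearing fibrils of connective tissue, and fibroblasts are their main source. Basement membrane collagens form sheets under epithelia, around vessels and around muscle. Fibril-associated collagens with interrupted triple helices (FACIT) sit on the surface of fibrils, network and beaded filament collagens build lattices between them, and transmembrane collagens are held in the cell surface. Cbx2 belongs to the polycomb group, whose proteins hold developmental genes in a silent chromatin state.

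The stretches before the start of 4 collagen genes are shown because these genes changed in opposite directions between the genotypes. Col1a2 and Col3a1 fell in knockout, and Col7a1 and Col8a1 rose. Each sequence is the 250 bases before the start, on the strand of the gene, from RefSeq in the GRCm38.p6 assembly. Capitals mark the letters of 3 motifs: TATAAA on the strand of the gene, and CCAAT and GGGCGG on both strands. The positions, in the order printed, are chr6:4505368-4505617 on the plus strand, chr1:45311288-45311537 on the plus strand, chr9:108953336-108953585 on the plus strand and chr16:57754738-57754987 on the minus strand.
Col1a2: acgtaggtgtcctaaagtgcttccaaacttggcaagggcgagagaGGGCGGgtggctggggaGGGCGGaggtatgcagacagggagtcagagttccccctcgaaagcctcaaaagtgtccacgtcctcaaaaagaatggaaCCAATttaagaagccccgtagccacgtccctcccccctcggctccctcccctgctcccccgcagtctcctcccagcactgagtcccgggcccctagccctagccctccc
Col3a1: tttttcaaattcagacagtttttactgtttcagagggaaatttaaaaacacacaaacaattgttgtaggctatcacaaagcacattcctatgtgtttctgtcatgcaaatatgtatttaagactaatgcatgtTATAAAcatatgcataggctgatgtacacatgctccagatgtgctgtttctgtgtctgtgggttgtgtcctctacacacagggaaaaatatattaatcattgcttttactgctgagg
Col7a1: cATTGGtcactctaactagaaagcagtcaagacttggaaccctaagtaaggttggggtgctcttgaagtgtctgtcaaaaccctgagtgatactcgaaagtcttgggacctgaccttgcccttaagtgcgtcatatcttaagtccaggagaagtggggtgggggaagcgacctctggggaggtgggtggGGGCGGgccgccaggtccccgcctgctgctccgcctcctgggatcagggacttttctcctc
Col8a1: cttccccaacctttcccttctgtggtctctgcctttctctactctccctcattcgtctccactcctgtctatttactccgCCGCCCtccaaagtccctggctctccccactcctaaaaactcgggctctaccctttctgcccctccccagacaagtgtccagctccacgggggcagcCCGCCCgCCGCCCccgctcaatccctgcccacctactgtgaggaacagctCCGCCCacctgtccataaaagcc
Col8a1 had 4 matches to GGGCGG, at 170, 73, 66 and 23 bases before the start. Col7a1 had 1 match to GGGCGG at 61 bases and 1 to CCAAT at 249 bases. Col1a2 had 2 matches to GGGCGG, at 205 and 188 bases, and 1 to CCAAT at 109 bases. Col3a1 held only a TATAAA, at 117 bases. The stretches of Col24a1 and Col6a1, which also fell, had no match to any of the 3 motifs and are not shown. RefSeq entries of this kind were found for 35 of the 43 collagen genes. Each collagen gene was counted by its first entry, whereas the shares over all entries count every entry, so the units differ. GGGCGG occurred in 21 of those 35, against 32.7% of all 32851 entries of the same length. CCAAT occurred in 34.3% of the 35 against 33.8% of all, and TATAAA in 14.3% against 7.59%. Of the genes that rose 5 of 6 with an entry held GGGCGG, and of those that fell 3 of 8. A match is a description of these letters and not a bound site.

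The targeted gene fell. The authors' deposited table lists Cbx2 at 346.8 for wild type and 29.0 for knockout cells (log2 fold change -3.58, DESeq2 adjusted p 2.55e-44). The table holds 1 scaled value per genotype, so no SD between libraries can be given. Every value, log2 fold change (knockout over wild type) and adjusted p printed for a gene comes from the authors' deposited table and its DESeq2 test. The standard errors (SE) were implied from its fold changes and p-values. A gene was called, and said to rise or fall, where the adjusted p was under 0.05. For genes with a mean value under 50 the whole reads of each library could be worked back from the deposited values, and these are given as recovered reads, in no known order within a genotype. In 307 of 307 such genes compared, the deposited values of the genotypes lay closer together than the means of the recovered reads. The deposited values of low genes are therefore not the read level of each genotype, and for genes with a mean of 50 or more this could not be checked.

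Collagen genes changed in both directions, with different counts at different levels. Of the 43 genes 6 rose and 10 fell (37.2% called), against 7.78% of all genes tested, or 3.48% higher and 4.30% lower. Their median log2 fold change was -0.0015, beside 0.0036 over all genes. By the deposited fold changes only Col4a6 was called at 2-fold or more, against 1.69% of all genes. Col15a1 (-0.99) and Col24a1 (-0.93) lay just under that size. Of the 11 collagen genes with a mean value of 10000 or more, 7 fell and none rose. Of all 255 genes at that level 32.9% were called, 25.1% lower and 7.84% higher. Of the 14 between 100 and 10000, 5 rose and 3 fell. Of 10129 genes in that range 10.8% were called, 4.62% higher and 6.22% lower. Among the 18 below 100, 1 rose and none fell, and 2.48% of 7057 genes there were called, 1.69% higher and 0.794% lower. Small changes pass the test more easily in genes with many reads, which is why these counts are set beside genes of the same level. The counts by class given below are not matched for level.

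**Figure D1:**
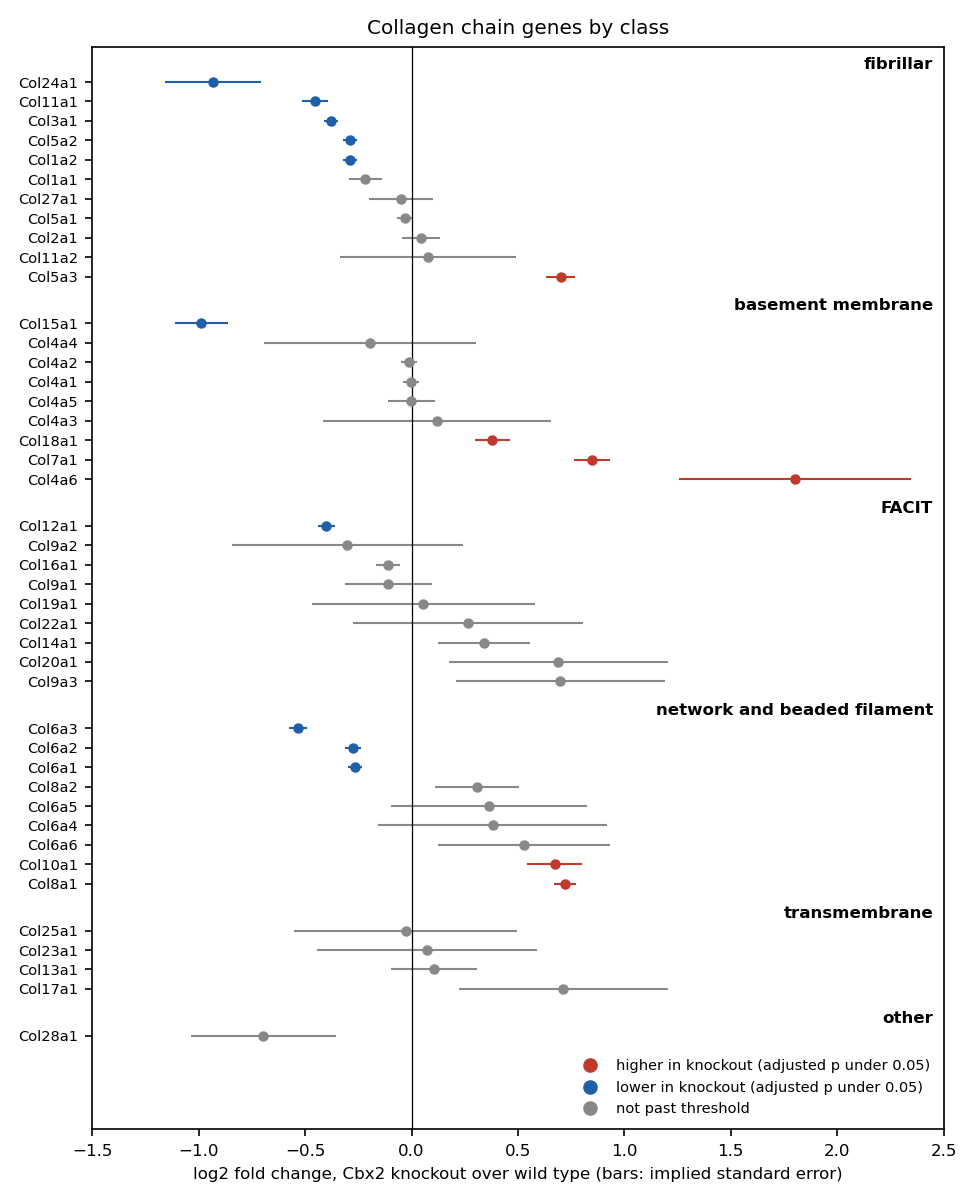
Log2 fold change of each collagen chain gene, knockout over wild type, on the horizontal axis, with 1 implied standard error as a bar and the genes grouped by class. Col15a1 at -0.99 and Col24a1 at -0.93 are the lowest of the called genes and Col4a6 at 1.80 is the highest, while the Col4a1, Col4a2 and Col4a5 points lie on the line at 0.

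**Figure D2:**
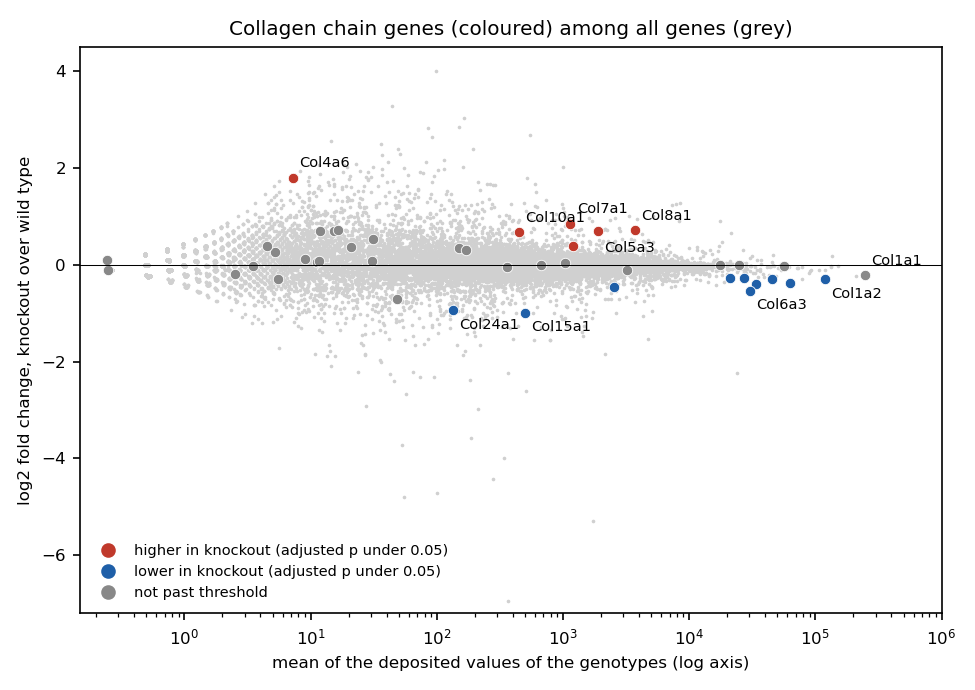
Log2 fold change (vertical axis) against the mean deposited value (horizontal log axis) for all 17441 genes in grey and the 43 collagen genes as larger points. The 11 collagen genes with a mean at or above 10000 lie below 0, and the called genes above 0 lie at lower means.

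Collagen genes made up a smaller part of the summed deposited values in knockout than in wild type. They accounted for 3.91% of the summed values in wild type and 3.41% in knockout, a share with no replicate check. Per kilobase of transcript, which corrects for long genes giving more reads, the shares were 1.53% and 1.32%. The 11 genes at or above 10000 carried 97.9% of the collagen signal in wild type and 97.1% in knockout. Col1a1 alone carried 34.8% and 35.3% of it. The summed value of fibrillar collagens was 579146 in wild type and 491990.5 in knockout, and that of FACIT collagens 42087 and 32538. Network and beaded filament collagens summed to 92114 and 74129, and basement membrane collagens to 45589 and 46069.

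**Figure D3:**
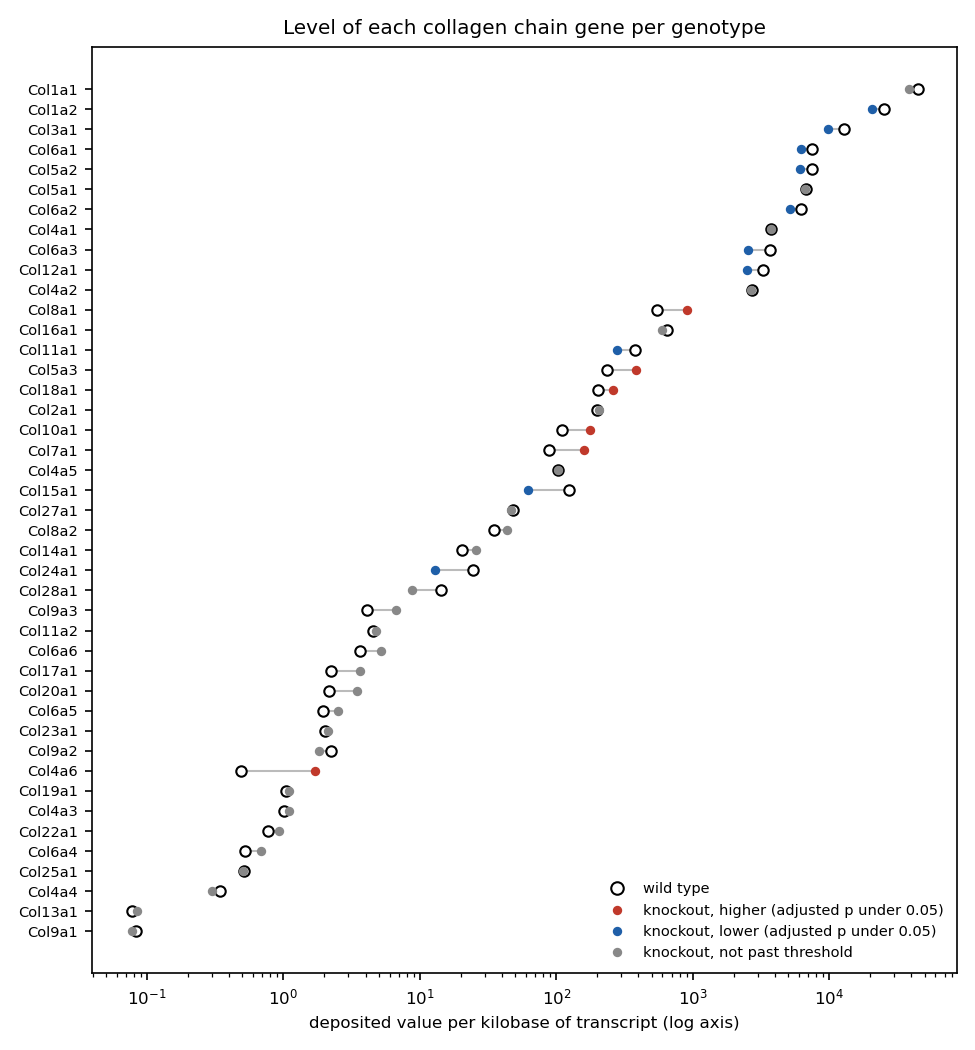
Deposited value per kilobase of transcript for each collagen gene in wild type (open circles) and knockout (filled, red where higher and blue where lower by the test) on a log axis, sorted by level. The highest is Col1a1, at 44482 per kilobase in wild type, and the lowest are Col9a1 and Col13a1, whose values rest on 1 read each. The 11 highest genes hold their place above all others in both genotypes.

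Among fibrillar collagens the chains of types I and III and the main chains of type V fell or did not pass the test, and the minor type V chain rose. Of 11 genes 5 fell and 1 rose, where 4.30% and 3.48% of all genes did so, with a median log2 fold change of -0.22. Col1a1 and Col1a2, which together make type I collagen, the main protein of skin, tendon and bone, were the highest. Col1a1 (chromosome 11, 94936224 to 94953042) went from 264489 to 227630.2, a log2 fold change of -0.22 (SE 0.078) that did not pass the test (adjusted p 0.0653). It did pass when the adjustment was recomputed over genes at or above the median value (adjusted p 0.0432), an alternative chosen after seeing the data. It did not pass with the SE enlarged by 20% (adjusted p 0.246) or with equal column sums (0.195). Centring on the median of the more highly expressed genes also left it short (0.0918). Col1a2 went from 130560.5 to 106979, a fall of 0.29 on the log2 scale (SE 0.033, adjusted p 4.16e-16). The size of the Col1a1 difference was thus similar to that of its partner, and its implied SE was larger. Col3a1, the type III chain of stretchable tissue, dropped from 71346 to 54815 (log2 fold change -0.38, SE 0.033, adjusted p 1.46e-28). Per kilobase these 3 genes ranked 10, 29 and 91 among all genes in wild type and 12, 36 and 129 in knockout.

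Type V collagen, which starts and limits the growth of fibrils, split by chain. Its chain gene Col5a2 fell from 49502 to 40542 (log2 fold change -0.29, SE 0.033). Col5a1 was at 57302 and 56033 (log2 fold change -0.032, 95% interval -0.11 to 0.041 from the implied SE), so that a change as large as that of Col5a2 lay outside its interval. Col5a3, the minor chain, rose from 1436 to 2335 (log2 fold change 0.70, SE 0.069, adjusted p 6.54e-22). Even after that rise it stood at 0.0572 of the level of Col5a1 per kilobase in knockout, from 0.0344 in wild type.

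The fibrillar chains best known from cartilage also differed from each other. Col11a1, a chain of type XI collagen, fell from 2925 to 2135 (log2 fold change -0.45, SE 0.061, adjusted p 1.10e-11). Col2a1, the main fibrillar collagen of cartilage, had 1012 and 1044 (log2 fold change 0.044, SE 0.090) and did not pass. Col11a2 had 25 and 32 recovered reads in the wild-type libraries and 40 and 25 in the knockout libraries, so the genotypes overlapped. Col24a1, a fibrillar chain of developing bone, dropped from 176 to 92.4 (log2 fold change -0.93, SE 0.23, adjusted p 9.15e-04). Col27a1, another developmental fibrillar chain, was at 367 and 354 and did not pass. Among the cartilage markers beside them, 1 rose and 2 fell of the 5 found of 8 listed, where 3.48% and 4.30% of all genes did so. Of the 4 with a mean below 100, 1 rose and 1 fell, where 1.69% and 0.794% of all genes did so. The summed value of the 5 markers went from 653 to 456. Acan, the cartilage proteoglycan aggrecan, fell. Its wild-type libraries had 41 and 36 recovered reads, its knockout libraries 13 and 10. Sox9, the master regulator of cartilage, fell from 527 to 303 (log2 fold change -0.80), and Comp, a cartilage and tendon matrix protein, rose from 39.2 to 103 (1.40). The bone markers Sp7 (183 and 206) and Bglap (0 and 1 reads, then 0 and 0) did not pass, and neither did the other 6 of that list. The part of these cells in the collagen differences was not tested, and in bulk RNA fewer cells of a type and less RNA per cell cannot be told apart.

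Basement membrane collagens held 3 of the 6 rises, 1 of them that of Col4a6, a gene with few reads. Of 9 genes 3 rose and 1 fell, where 3.48% and 4.30% of all genes did so, and the median log2 fold change was -0.0015. The abundant type IV chains Col4a1 and Col4a2 form the standard network of basement membranes, and neither passed the test. Col4a1 had 24892 in wild type and 24849 in knockout (log2 fold change -0.0025, 95% interval -0.078 to 0.073), and Col4a2 had 17503 and 17379 (-0.010, interval -0.084 to 0.063). Together with Col5a1 these had the smallest fold changes among the 11 collagens at or above 10000. Col4a5, a chain of tissue-restricted type IV networks, had 668 in both genotypes (log2 fold change -0.0015, SE 0.11).

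Col4a6, its usual partner, rose. On the X chromosome (141165403 to 141474095 in GRCm38.p6), it had 0 and 1 recovered reads in the wild-type libraries and 12 and 17 in the knockout libraries. Both knockout libraries were above both wild-type libraries, as in 18.9% of 307 genes with a mean under 50. Summed and scaled for depth the ratio was 27.3, with an exact 95% interval of 4.52 to 1114 that covers counting error only. The deposited fold change was smaller, 1.80 on the log2 scale (SE 0.54, adjusted p 0.0151). With the SE enlarged by 20% Col4a6 no longer passed (adjusted p 0.0947). Its deposited value stayed low, at 1.70 per kilobase in knockout against 103 for Col4a5. The other pair of restricted chains, Col4a3 and Col4a4, overlapped between genotypes. Col4a3 had 3 and 13 reads in the wild-type libraries and 10 and 10 in the knockout ones. Col4a4 had 4 and 2, then 1 and 3.

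The basement membrane zone collagens outside type IV all changed. Col7a1, which forms the anchoring fibrils that tie skin epithelium to the dermis, rose from 818 to 1472 (log2 fold change 0.85, SE 0.084, adjusted p 1.28e-21). Col18a1, whose end fragment is endostatin, rose from 1034 to 1346 (log2 fold change 0.38, SE 0.084, adjusted p 1.60e-04). Col15a1, its closest relative and also a proteoglycan of vessel and muscle basement membranes, dropped from 659 to 332 (log2 fold change -0.99, SE 0.13, adjusted p 3.24e-13). The related pair Col15a1 and Col18a1 thus moved in opposite directions. Of the 9 endothelial markers found of 10 listed, 2 rose and 1 fell, where 3.48% and 4.30% of all genes did so. Their sum was 713 in wild type against 1050.2 in knockout. The defining endothelial gene Pecam1 was at 2 and 2 reads, then 1 and 3. The adhesion molecules Esam (35.6 to 290, log2 fold change 3.03) and Cdh5 (61.6 to 324, 2.40) rose. The receptor Flt1 fell (540 to 369, -0.55). Epithelial markers had 2 falls and no rise among 7, namely the keratins Krt8 (-3.71) and Krt18 (-1.78), and the defining gene Epcam had 3 and 1 reads in each genotype. Their part in the changes of Col7a1, Col15a1 and Col18a1 was not tested.

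In the FACIT class the abundant chain fell and the others did not pass. Of 9 genes 1 fell and none rose (11.1% called, near the 7.78% of all genes), and the median log2 fold change was 0.055. The gene that fell, Col12a1, had a mean above 10000, a level where 25.1% of all genes fell. Col12a1, which coats type I fibrils in tendon and muscle sheaths, dropped from 38552 to 29205 (log2 fold change -0.40, SE 0.041, adjusted p 1.50e-20). Col16a1 had 3361 and 3111 (log2 fold change -0.11, SE 0.057, adjusted p 0.349), and Col14a1, a relative of Col12a1 in mature skin and tendon, had 131 and 166 (0.34, SE 0.22, adjusted p 0.558). The remaining 6 FACIT genes had few reads. Col19a1 had 6 and 15 in the wild-type libraries and 9 and 15 in the knockout ones, Col20a1 had 9 and 6, then 19 and 14, and Col22a1 had 2 and 6, then 4 and 9. The chains of type IX collagen, the FACIT of cartilage, had different patterns of reads. Col9a3 had 10 and 10 in the wild-type libraries and 19 and 23 in the knockout ones, Col9a2 had 5 and 8, then 5 and 4, and Col9a1 had a single read in all 4 libraries.

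The 3 main chains of type VI collagen fell, while Col8a1 and Col10a1 rose. Of the 9 network and beaded filament genes 3 fell and 2 rose, where 4.30% and 3.48% of all genes did so. Their median log2 fold change was 0.36. Col6a1, Col6a2 and Col6a3 join in the standard type VI trimer, which forms beaded filaments around cells. Col6a1 dropped from 29902 to 24880 (-0.27, SE 0.033), Col6a2 from 23091 to 19110 (-0.27, SE 0.037) and Col6a3 from 35780 to 24725 (-0.53, SE 0.041, adjusted p 9.29e-36). The ratio of Col6a1 to Col6a2 per kilobase was 1.21 in wild type and 1.22 in knockout. That of Col6a1 to Col6a3 went from 2.04 to 2.46. Whether the 3 falls differed in size was not tested. The chains that can take the place of Col6a3 were low. Col6a4 had 2 and 4 reads in the wild-type libraries and 6 and 6 in the knockout ones, Col6a5 had 20 and 14, then 19 and 31, and Col6a6 had 26 and 22, then 45 and 34. None of these passed the test.

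Col8a1 and Col10a1 are short-chain collagens that build hexagonal lattices. Col8a1, found in vessel walls and in the membrane under the corneal endothelium, went from 2795 to 4607 (log2 fold change 0.72, SE 0.053), and its adjusted p of 8.31e-40 was the smallest among the collagen genes. Its partner Col8a2 had 152 and 189 (log2 fold change 0.31, SE 0.20, adjusted p 0.582). Col10a1, the collagen of hypertrophic cartilage, rose from 346 to 552 (log2 fold change 0.67, SE 0.13, adjusted p 7.42e-06). Col10a1 lies wholly within the span of Nt5dc1 (7105 shared bases), and no strand setting of the counting is given in the sources used here, so reads of the pair may not be separable. Nt5dc1 itself had 146 and 147 (log2 fold change 0.0093).

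Transmembrane collagens were all low, and none of the 4 passed the test, with unadjusted p values under 0.05 in 0 of them. Col17a1, which anchors epithelial cells at hemidesmosomes, had 9 and 12 reads in the wild-type libraries and 30 and 15 in the knockout ones. Col23a1 had 15 and 7, then 12 and 13, and Col25a1 had 5 and 2, then 3 and 4. Col13a1 had 1 read in all. Col28a1, a chain outside these classes that is known from nerve, had 64 and 56 reads in the wild-type libraries and 36 and 38 in the knockout ones (log2 fold change -0.70, SE 0.34). Both knockout libraries of Col28a1 were below both wild-type libraries, as in 15.3% of 307 genes with a mean under 50, and its adjusted p was 0.295.

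Recovered reads were to hand for all 18 collagen genes with a mean value under 50. In 6 of them both knockout libraries lay above both wild-type libraries after scaling, namely Col4a6, Col9a3, Col20a1, Col6a6, Col6a4 and Col17a1. In 2, Col28a1 and Col9a2, both lay below. The same was seen in 18.9% and 15.3% of 307 genes under 50. Except for Col4a6 none of the 18 passed the authors' test. The implied standard errors of the 18 ran from 0.20 to 0.54 on the log2 scale, and the smallest belonged to Col13a1, with 1 read in all.

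**Figure D4:**
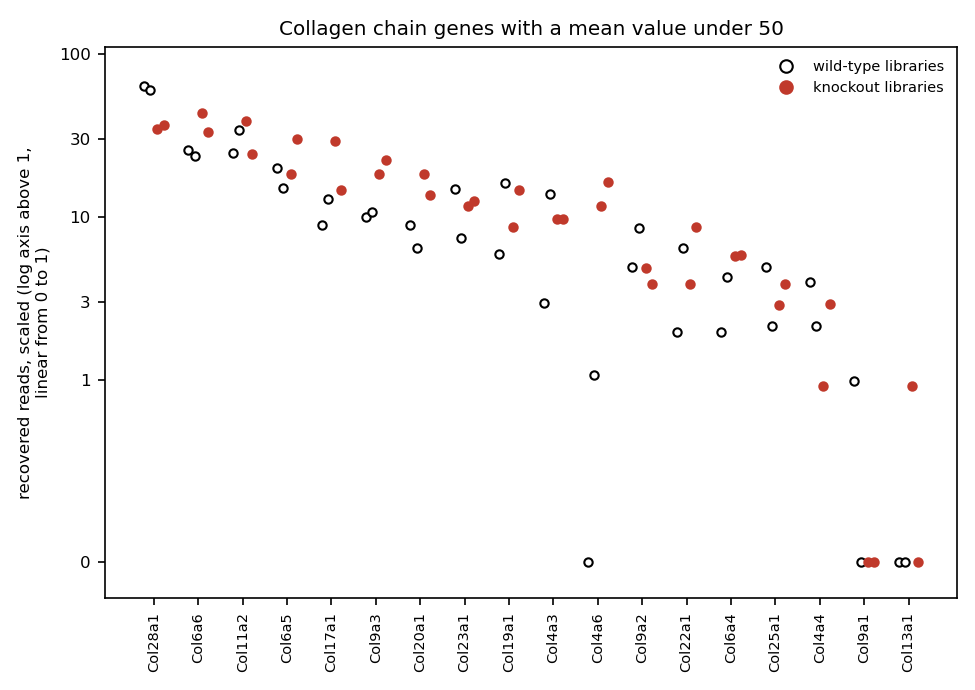
Recovered reads, scaled by library size, of the 18 collagen genes with a mean value under 50, with 2 wild-type libraries (open) and 2 knockout libraries (filled) per gene. Col4a6 had 0 and 1 reads against 12 and 17, and 10 of the 18 genes have overlapping genotypes.

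Chains of the same trimer and genes that lie side by side were alike in some cases and unlike in others. Per kilobase Col1a1 stood at 1.78 times Col1a2 in wild type and 1.87 times in knockout, and Col4a1 at 1.39 times Col4a2 in both. In GRCm38.p6 the genes Col3a1 and Col5a2 lie 24624 bases apart on chromosome 1 and both fell. Col6a2 and Col6a1 are neighbours on chromosome 10, 85161 bases apart, and both fell by similar amounts, whereas Col18a1, which follows 326133 bases further on, rose. Col4a1 and Col4a2 overlap by 85 bases at their starts on chromosome 8, and neither passed the test. Col4a6 and Col4a5 are separated by 1274 bases on the X chromosome, and there Col4a6 rose and Col4a5 did not pass. In all, 12 pairs of collagen genes lay within 1 Mb of each other, 10 of them with no other collagen gene between.

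Genes that make, secrete, crosslink and degrade collagen were lower more often than higher, while those that bind it were not. Of 46 such genes 16 fell and 4 rose (43.5% called against 7.78% of all genes), and their median log2 fold change was -0.12. By level, 4 of the 9 with a mean of 10000 or more fell and none rose, where 25.1% of all genes fell and 7.84% rose. Of the 31 between 100 and 10000, 12 fell and 4 rose, where 6.22% and 4.62% of all genes did so, and none of the 6 below 100 was called. With values scaled to equal column sums, 12 fell and 6 rose. Loxl3, a lysyl oxidase that crosslinks collagen, had the smallest adjusted p, dropping from 5537 to 3278 (-0.76, SE 0.053, adjusted p 1.00e-43). Adamts2, which cuts the amino end from fibrillar procollagens, dropped from 2695 to 1646 (-0.71, SE 0.066, adjusted p 5.79e-25). Mmp14, a membrane protease that degrades collagen, fell by 0.36 and Mmp2, a gelatinase that it activates, fell by 0.31 on the log2 scale. P4ha1, a catalytic subunit of prolyl hydroxylase, fell from 6846 to 5233 (-0.39), and Plod2, the lysyl hydroxylase that directs crosslinks in the chain ends, rose from 3290 to 4157 (0.34).

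The counts by step are small and not matched for level, and over all genes 4.30% fell and 3.48% rose. By step, 4 of 15 hydroxylase and sugar transfer genes fell and 2 rose. Of the 5 chaperone and export genes 4 fell and none rose. Procollagen processing had 3 falls among 7, crosslinking 2 among 5 and turnover 3 among 7, with no rise in any of them. Among the 7 receptor genes 2 rose and none fell.

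**Figure D5:**
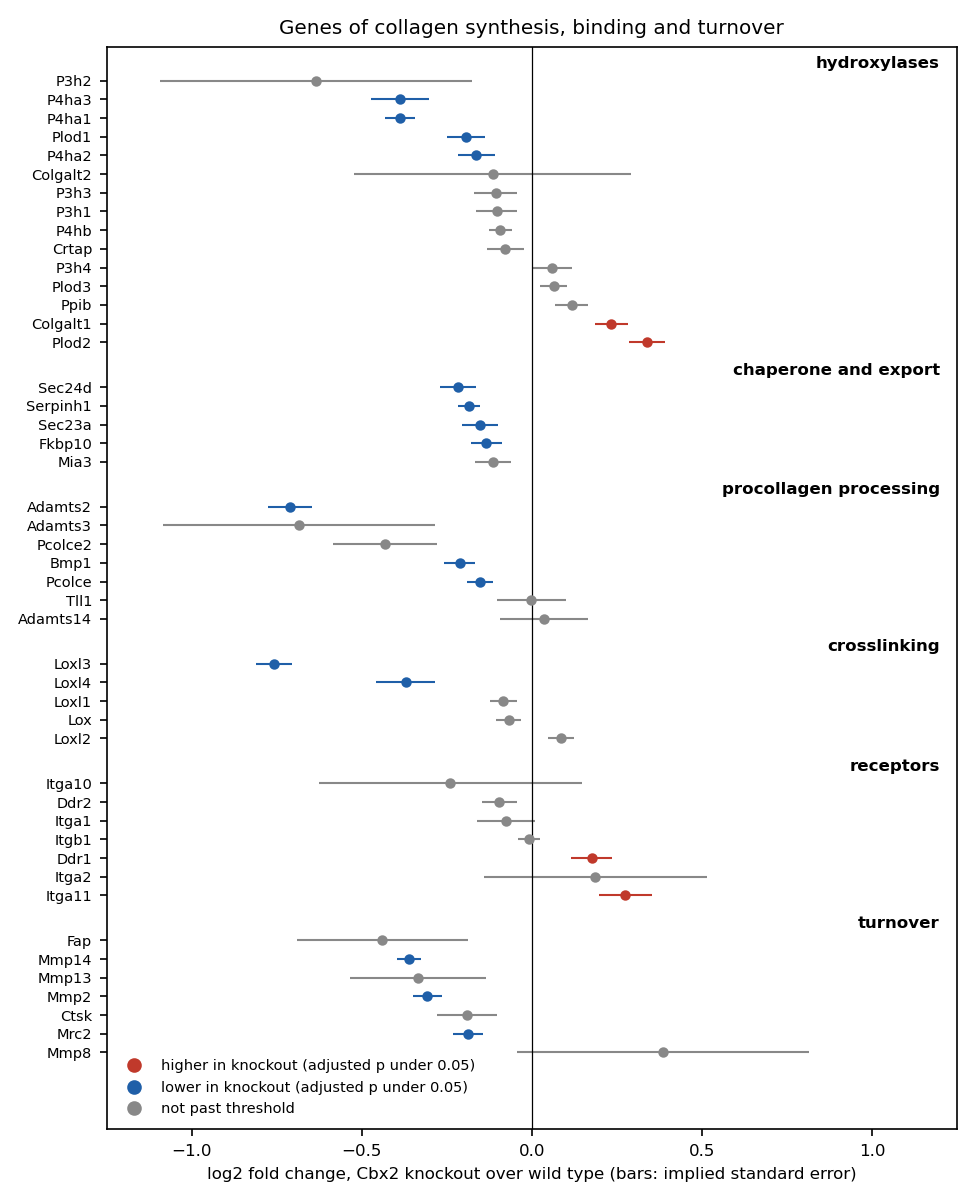
Log2 fold change, knockout over wild type, of 46 genes of collagen synthesis, binding and turnover, with 1 implied standard error as a bar, grouped by step. Loxl3 at -0.76 and Adamts2 at -0.71 are the lowest called genes, and Plod2 at 0.34 is the highest.

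Markers of fibroblasts and of other cells were measured in the same table, in which 3.48% of all genes rose and 4.30% fell. All 10 fibroblast markers were present, and 6 fell and 1 rose. Of the 8 with a mean between 100 and 10000, 5 fell, where 6.22% of all genes did. Of the 2 at or above 10000, 1 fell, where 25.1% did. The 10 fibroblast markers summed to 253965 in wild type against 260888 in knockout. Fibronectin (Fn1), one of them, was at 127667 and 143893 and not past the test. Without it the sum was 126298 against 116995, a sum added after the values were seen. Pdgfra, a receptor of mesenchymal cells, fell from 2162 to 1416.5, and Thy1, a fibroblast surface protein, rose from 4928 to 11919. Dcn (log2 fold change -1.06), a fibril-binding proteoglycan, and S100a4 (-0.46) fell. Macrophage markers had 9 rises and no fall among 13, and a sum of 679 in wild type against 1962. Of these 13, 9 had a mean below 100 and 6 of them rose, where 1.69% of all genes at that level did. Lyz2 (2.68), Cd68 (1.47) and Ctss (2.39) rose, and the leukocyte gene Ptprc, at 3 and 3 reads, then 21 and 16, did not pass (adjusted p 0.0640). Neither did the macrophage receptor Csf1r (245 and 257, adjusted p 0.955). C1qa (1 and 2 reads, then 10 and 9) and C1qb (3 and 8, then 3 and 1) also did not pass. Smooth muscle and pericyte markers had 4 falls and no rise among 7, with Des (-1.05), Myh11 (-0.55) and Rgs5 (-1.10) falling, while their sum went from 204267 to 195091. Of these 7, 3 had a mean of 10000 or more and 1 of them fell, where 25.1% of all genes did. The other 4 lay between 100 and 10000 and 3 of them fell, where 6.22% did. Tendon markers had 1 rise among 4, that of Tnmd (1.00), and 1 of 5 Schwann and neural crest markers fell, S100b (-0.39). Skeletal muscle markers had 2 of 5 in the table and no call. The part of these cells in the collagen results was not tested.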

How the data were processed

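RNA was sequenced in 2 wild-type and 2 Cbx2 knockout libraries, grouped by the titles in their labels. The submitters' processing notes name mm10 and the tools RSEM, HISAT2, DESeq2 and Bowtie2, with no version, role or filter. The authors deposited 1 table with a normalised signal per genotype (sums 19428299 and 18910077), a log2 fold change, a p-value and an adjusted p-value per gene. The deposited log2 fold changes equal the log2 ratio of the columns to within 9.13e-09, and a Benjamini-Hochberg adjustment of the p-values over the 17441 genes gave the deposited adjusted values to within 1.33e-06. Since the table holds no counts per library, the authors' DESeq2 comparison, planned for this case, is the main test (adjusted p under 0.05). An SE was implied as the fold change divided by the normal quantile of the deposited p.

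The mean of both columns is a sum of whole reads with a fixed worth per library. For means under 50 exactly 1 set of reads matched within 6e-09 in 307 of 307 genes checked, of 6126, and in 18 of 18 collagen genes. Shifted values had a match in 1.11% of 180 trials. The deposited columns differ less between genotypes than the recovered reads do in 307 of 307 genes. The order of libraries within a genotype is not known. Recovery and recomputed p-values were tested on simulated data. Identifiers of all 43 members were matched to RefSeq (GRCm38.p6). All value columns were mapped to a genotype. Python 3.11.15, NumPy 2.4.6, pandas 2.3.3, SciPy 1.17.1 and matplotlib 3.10.9 were used.

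Collagen classes, the list of collagen handling genes, the marker lists and the alternatives were chosen with earlier results of these data known. The genes named are the called collagens, uncalled ones at or above the median value of 230.3 or sharing a trimer with a named chain, up to 6 called handling genes with the smallest adjusted p, up to 3 called genes per marker list and the defining markers. Low members outside this rule are named with their reads, to account for each. The macrophage markers that did not pass are also named. Pseudocounts of 0.5 and 1 were used for ratios of recovered reads.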

Additional observations from a re-analysis of the deposited data

How the results depend on the processing

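The 6 rises and 10 falls among collagen genes were 6 and 10 again under equal column sums (a shift of 0.039 on the log2 scale) and centring on the median of the more highly expressed genes (0.011). There were 5 rises and 10 falls at an adjusted p under 0.01, with the SE enlarged by 20% and with less expressed genes (below the median value) removed. That removal took out Col4a6 and Col24a1 and added a call for Col1a1 (adjusted p 0.0432, an alternative for single genes chosen after seeing the data). Requiring a 2-fold change left 1 rise and 0 falls, and 0 rises and 0 falls among the 46 collagen handling genes. In that list the 4 rises and 16 falls became 2 and 12 with the enlarged SE, 3 and 12 at an adjusted p under 0.01, 4 and 18 with less expressed genes removed, 6 and 12 with equal column sums and 4 and 13 when centred. Equal column sums gave 763 rises and 566 falls over all genes in place of 607 and 750. The collagen share was 1.53% in wild type and 1.32% in knockout with values per length, and 2.55% and 2.21% without Col1a1. Single collagen genes kept their side of the threshold under both scalings in 43 of 43 cases and with the enlarged SE in 42, the exception being Col4a6. In recovered reads the log2 ratio of Col4a6 was 3.81 with a pseudocount of 0.5 and 3.29 with 1, and 3.21 to 4.86 with each library left out. Leaving out libraries was not possible for genes with a mean of 50 or more. No paired analysis was possible because the table holds 1 value per genotype and recovered reads carry no replicate number. The test planned for counts per library (edgeR) was not run, since the table holds no such counts. Few reads limit the 18 genes below 50.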

Other observations

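The deposited annotation places 18 further genes, outside the collagen symbols, in the collagen trimer term, a list chosen after the collagen values were seen. Of these 4 fell and 1 rose in the authors' deposited table, or 27.8% called beside 7.78% of all genes, with a median log2 fold change of -0.089. By level, 1 of 2 with a mean of 10000 or more fell, where 25.1% of all genes did. Between 100 and 10000, 3 of 10 fell, where 6.22% did, and below 100, 1 of 6 rose, where 1.69% did. Scara5, a ferritin receptor with a collagen-like domain, rose from 15.3 to 66.5 (log2 fold change 2.12). Emilin2, a glycoprotein of elastic tissue, fell from 4068 to 3362 (-0.28), and C1qtnf3, a secreted protein with a collagen-like stem, fell from 2095 to 1812 (-0.21). Pcolce and Plod1, both also in the list of collagen handling genes, were the other two that fell. Lox was at 74928 and 71453 and did not pass.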
